A study of Mus musculus with 6 samples.

Results

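The integrated stress response and serine synthesis genes described here are 10 genes, Atf4, Atf5, Ddit3, Trib3, Chac1, Asns, Psat1, Phgdh, Gdf15 and Fgf21, in cardiomyocyte (CM) nuclei of postnatal mouse hearts that expressed GFP, YAP6SA or YAP5SA. They were found by symbol in the GENCODE M21 annotation of the Ensembl IDs in the count table, which gave 11 of 54532 rows, since Ddit3 has 2 IDs. Poly-A RNA from PCM-1-bound nuclei was sequenced with a non-directional kit in 6 libraries, 2 per virus, each virus with 1 library in batch 1 and 1 in batch 2. The study asked how YAP6SA OE CMs differ in transcription from GFP and YAP5SA OE CMs. The member values by library come first, then each comparison, then the other genes of the same pathways.

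All mice were wild type on the ICR background. AAV9 was given under the skin when they were 6 d old, at a dose of 1e+11 viral genomes, and hearts were taken at 9 d. The control virus carried cTnT-GFP, and the others carried cTnT-YAP6SA or cTnT-YAP5SA. The cardiac troponin T (cTnT) element drives expression in CMs. YAP5SA has serine-to-alanine changes at the sites that LATS1/2 phosphorylate, and YAP6SA has these and a further change that disrupts the interaction with TEAD. The labels give 2 hearts per virus, and male and female mice were used in the study. Nothing in the labels ties a library to a litter or a sex, so p-values measure the spread between these libraries. GFP, YAP6SA and YAP5SA are each given below as batch 1 and then batch 2.

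The integrated stress response is the shared arm of 4 kinases, Eif2ak1 to Eif2ak4, that phosphorylate the translation factor eIF2 in response to lack of heme, double-stranded RNA, misfolded protein in the endoplasmic reticulum (ER) or lack of amino acids. Bulk translation then falls while the Atf4 message is translated more, so the Atf4 RNA level does not report the amount of ATF4 protein. ATF4 raises transcription of the stress factors Ddit3 (CHOP), Atf5 and Trib3, of amino acid enzymes such as Asns, Phgdh and Psat1, of Chac1, and of the secreted factors Gdf15 and Fgf21. In heart muscle this program is known from mitochondrial dysfunction, where it feeds serine synthesis and the folate cycle.

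ATF4 acts with C/EBP partners at a composite element, so the RefSeq promoters of the 10 members (GRCm38.p6, 250 bases before each start) were searched on both strands for the core TGATGNAA and for the longer form TGATGCAAT with up to 1 mismatch. Both forms overlap each other. The stretches that matched are printed in gene orientation, 5′ to 3′, because they are the ATF4-type matches in the bases searched, with the matched bases in capitals. Sequence outside these windows was not searched.
Trib3: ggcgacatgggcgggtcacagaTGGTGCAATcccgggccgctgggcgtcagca
Asns: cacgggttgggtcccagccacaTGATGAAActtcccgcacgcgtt
Chac1, distal: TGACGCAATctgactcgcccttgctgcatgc
Chac1, proximal: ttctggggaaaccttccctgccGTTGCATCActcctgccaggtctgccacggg
Fgf21: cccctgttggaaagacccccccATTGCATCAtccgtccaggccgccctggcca
Gdf15: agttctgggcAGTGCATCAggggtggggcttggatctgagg
Psat1: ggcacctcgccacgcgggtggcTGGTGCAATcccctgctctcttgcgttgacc
The stretches lie at chr2:152344063-152344115 on the minus strand (Trib3), chr6:7693210-7693254 on the minus strand (Asns), chr2:119350992-119351022 and chr2:119351026-119351078 on the plus strand (Chac1), chr7:45615600-45615652 on the minus strand (Fgf21), chr8:70632666-70632706 on the minus strand (Gdf15) and chr19:15925165-15925217 on the minus strand (Psat1). The RefSeq starts of Psat1, Asns and Chac1 lie inside the longer GENCODE genes, and the Psat1 and Asns stretches lie within the GENCODE coordinates given below. The core occurred in 3 of the 10 members (Asns, Chac1 and Fgf21) and in 3.45% of all 32851 promoters. The longer form with up to 1 mismatch occurred in 5 members (Trib3, Chac1, Fgf21, Gdf15 and Psat1) and in 3.77% of all promoters, and without a mismatch in Fgf21 and in 0.167% of all promoters. These letters were not in the windows of Atf4, Atf5, Ddit3 and Phgdh, and a match is a description of sequence, not a measured site.

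The libraries held 14552847 to 19615627 counts in genes, and a gene with 0 counts could have had up to 3, which is 0.153 to 0.199 CPM (counts-per-million of the TMM-scaled library size) and covers counting error only. The mouse Yap1 row was at 139 and 129.7 CPM in GFP, 122 and 130.2 in YAP6SA and 138 and 102 in YAP5SA, so this row did not separate the YAP viruses from GFP and gave no check of the delivered variants. Defining CM markers (Tnnt2, Actn2, Myh6, Ryr2, Ttn, Pln, Myl2) were read in every library and summed to 46356 and 62097 CPM in GFP, 44049 and 56939 in YAP6SA and 39018 and 28455 in YAP5SA. Their sum was lower in both YAP5SA libraries than in the other 4, and 2 of the 7, Ryr2 and Pln, were called lower in YAP5SA than in GFP. The 6 macrophage markers summed to 50.3 and 69.8 CPM in GFP, 63.1 and 85.7 in YAP6SA and 71.1 and 111 in YAP5SA, and Lyz2 and C1qa were called higher in YAP5SA than in GFP. The fibroblast markers (6 genes, 349 to 679 CPM), endothelial markers (6 genes, 177 to 249), mural markers (4 genes, 141 to 191) and erythroid markers (4 genes, 23.9 to 59.9) had sums whose ranges overlapped between the groups, except for the mural sum in YAP5SA and YAP6SA and the erythroid sum in YAP5SA (30.3 to 43.7) and GFP (46.1 to 57.9). None of their genes was called. The part of these other cells in the results below was not tested, and in bulk nuclei fewer cells of a type and less RNA per cell cannot be told apart.

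The levels of the members differed by orders of magnitude. Per kilobase of exon, Atf4 (92.4 ± 5.65 CPM per kb, mean ± SD, n = 2) and Ddit3 (69.3 ± 6.62) led in GFP, Atf5 followed at 3.54 ± 0.783, and Chac1 (1.82 ± 0.756), Gdf15 (1.47 ± 0.577) and Trib3 (1.45 ± 0.124) lay close together. Asns (0.703 ± 0.420), Phgdh (0.701 ± 0.0255) and Psat1 (0.631 ± 0.0682) were lower still, and Fgf21 was at 0.0687 ± 0.0971. The SDs of Chac1, Gdf15 and Trib3 overlapped, as did those of Asns, Phgdh and Psat1, so the order within each trio was not resolved. Except for Atf4 and Ddit3, the tested members were read from 17 (Asns) to 308 (Atf5) counts per library, which limits their precision.

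**Figure D1:**
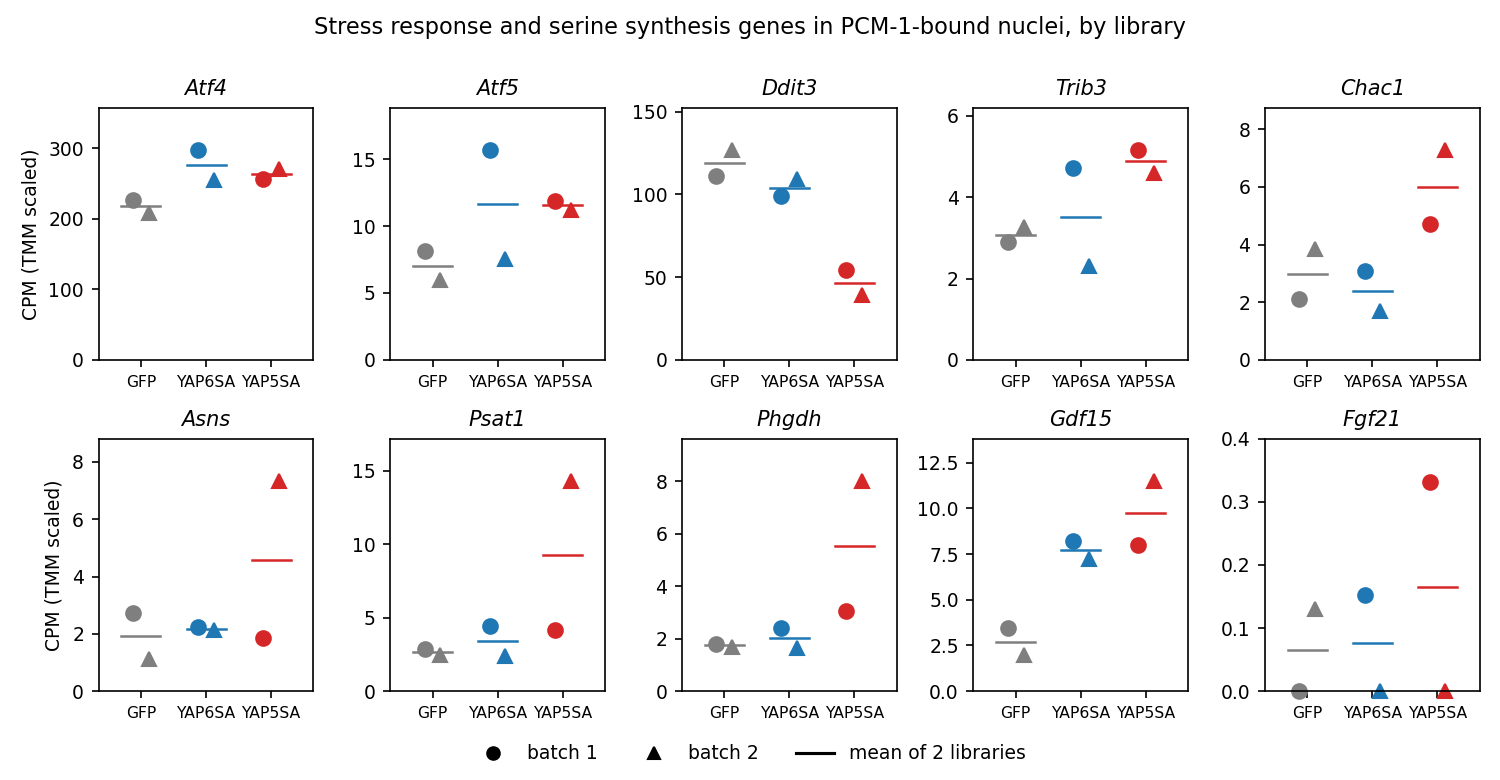
CPM (TMM scaled) of the 10 members in each library, with circles for batch 1, triangles for batch 2 and a line at the mean of the 2 libraries; each panel has its own axis from 0. Ddit3 sits at 54.1 and 39.2 CPM in YAP5SA against 98.9 to 127 elsewhere, Gdf15 at 7.21 to 11.5 in both YAP groups against 1.96 and 3.47 in GFP, and the batch 2 YAP5SA library stands above its partner for Asns, Psat1 and Phgdh.

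Of the 10 members, 9 passed the filter on low values (median log2 CPM over 1 in at least 1 group), as did 13323 genes in all. In YAP5SA OE CMs 2 of them changed against GFP, in opposite directions. Ddit3 fell and Gdf15 rose. That is 1 of 9 called higher, where 12.8% of all genes tested were called higher, and 1 of 9 called lower, where 9.18% were. The groups did not overlap in 8 of the 9, all but Asns, against 60.9% of all genes. The median log2 fold change of the 9 was 1.02, against -0.00 for all genes, and 5 of the 9 had an unadjusted p under 0.05, as did 36.4% of all genes. These figures include Phgdh, which passed the filter through YAP5SA alone. Its part in them is therefore no support for a rise in YAP5SA.

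In YAP6SA OE CMs none of the 9 members was called against GFP, where 0.0450% of all genes were called higher and 0% lower. DESeq2 and limma-voom also called none, and 1 member, Gdf15, had an unadjusted p under 0.05 in edgeR, as did 5.93% of all genes. Atf4, Ddit3 and Gdf15 were the 3 members whose groups did not overlap, against 34.3% of all genes, and the median log2 fold change was 0.23, against 0.00 for all genes. The paper reported far more genes changed in YAP6SA than this fit of all libraries called. A fit of the 4 GFP and YAP6SA libraries called 198 of all genes higher and 78 lower. A gene not called in YAP6SA is therefore not shown to be unchanged.

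Between the variants, Ddit3 was the 1 member called, lower in YAP5SA than in YAP6SA, where 5.68% of all genes were called lower and 9.0% higher. Ddit3, Chac1 and Phgdh were the 3 whose groups did not overlap, against 57.6% of all genes. The median log2 fold change was 0.51, against -0.01 for all genes, and 4 of the 9 had an unadjusted p under 0.05 (Ddit3, Chac1, Psat1 and Phgdh), as did 30.8% of all genes. Phgdh, which these figures include, passed the filter through YAP5SA alone. No member was called higher by the main edgeR fit, DESeq2 or limma-voom, while edgeR's likelihood ratio test and the fit with no filter called some. YAP6SA and YAP5SA were compared with the same GFP libraries, so the comparisons are not independent of each other.

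**Figure D2:**
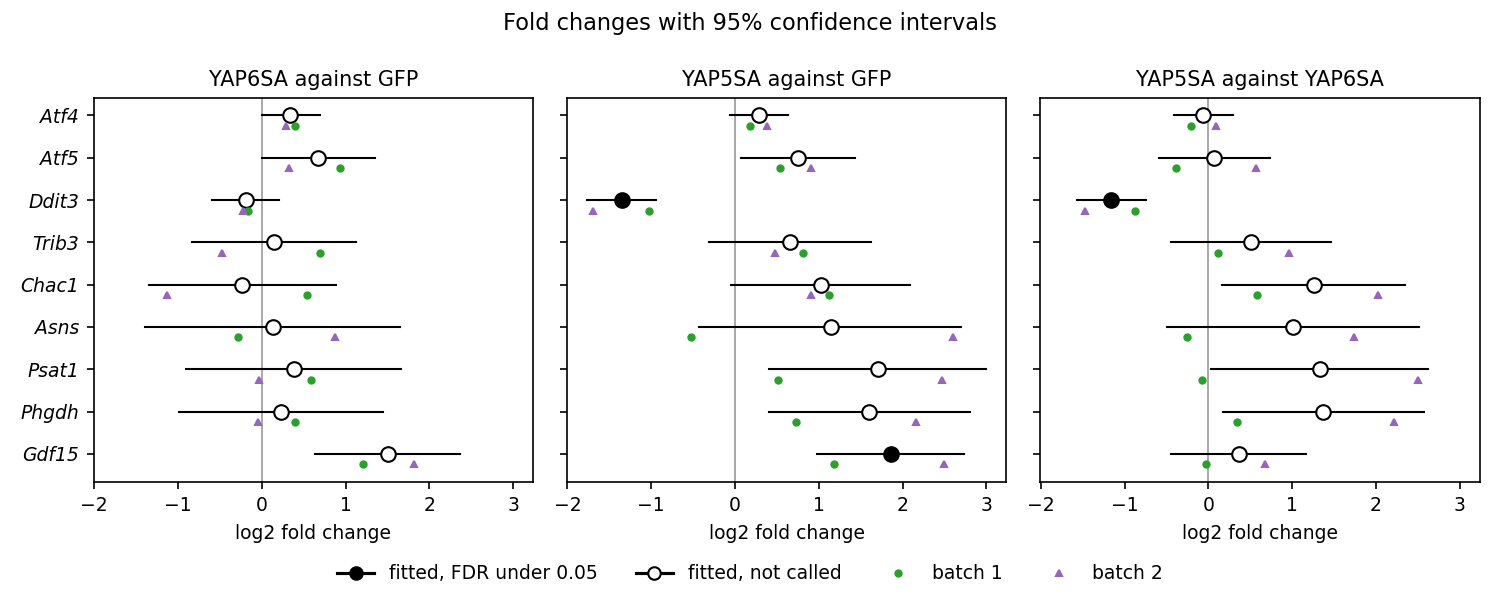
Log2 fold change of the 9 tested members in the 3 comparisons, with lines for the 95% confidence interval, filled circles for FDR under 0.05, and small marks for the log2 CPM difference within batch 1 and batch 2. Ddit3 is at -1.35 and -1.16 in the YAP5SA comparisons with both batches on the same side of 0, Gdf15 is at 1.50 and 1.86 against GFP, and the batches lie far apart for Asns, Psat1 and Phgdh in YAP5SA.

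Among the transcription factors, Atf4 itself (chr15:80255184-80257541, plus strand) was the most abundant member. It was at 227 and 208 CPM in GFP, 298 and 255 in YAP6SA and 257 and 271 in YAP5SA. All 4 YAP libraries were above both GFP libraries, by a margin not past the threshold in either comparison. The log2 fold change against GFP was 0.34 (SE 0.16, FDR = 0.839) for YAP6SA and 0.28 (SE 0.16, FDR = 0.222) for YAP5SA, and with 95% confidence intervals that ended at 0.69 and 0.63, a doubling of the RNA lay outside both intervals. In YAP5SA against GFP the Atf4 value ran from 0.17 to 0.41 with 1 library left out, and it passed the threshold under 1 of 13 alternatives.

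Ddit3 (chr10:127290774-127296288, plus strand), which encodes the pro-apoptotic factor CHOP, was the more abundant of the 2 members that changed. It was at 111 and 127 CPM in GFP, 98.9 and 109 in YAP6SA and 54.1 and 39.2 in YAP5SA. Both YAP5SA libraries were well under the other 4, while YAP6SA lay just under GFP. Ddit3 fell by 1.35 on the log2 scale in YAP5SA against GFP (95% CI -1.77 to -0.94, FDR = 0.00137), and the difference was -1.03 within batch 1 and -1.69 within batch 2. It fell by 1.16 against YAP6SA (95% CI -1.57 to -0.75, FDR = 0.00366), with -0.87 and -1.47 in the batches. For YAP6SA against GFP the log2 fold change was -0.19 (SE 0.18, FDR = 0.929). The YAP5SA calls held under all 13 alternatives in both comparisons, 6 of which left out a library each, with values from -1.67 to -1.03 against GFP. Of its 1713 exonic bases, 186 lie in other genes, 68 of them in Mars on the other strand, and reads there were dropped as ambiguous. Mars had 1604, 1402, 1574, 1498, 1241 and 2081 counts in the 6 libraries, in the order above, with no drop shared by both YAP5SA libraries. The second Ddit3 ID lies wholly inside the first and had 0 counts in every library.

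Atf5 (chr7:44812256-44816658, minus strand), a factor of the mitochondrial arm of the stress response, spread most in YAP6SA. It was at 8.15 and 5.94 CPM in GFP, 15.7 and 7.52 in YAP6SA and 11.9 and 11.2 in YAP5SA. The YAP6SA libraries lay on either side of YAP5SA, and the lower of them was within the GFP range. The log2 fold change against GFP was 0.67 (SE 0.30, FDR = 0.838) for YAP6SA and 0.75 (SE 0.30, FDR = 0.105) for YAP5SA. With 1 library left out the YAP5SA value ran from 0.41 to 1.09, and it passed the threshold under 1 of 13 alternatives. Between the variants it was 0.07 (95% CI -0.59 to 0.74). Of its exonic bases 4.11% are shared with Nup62 and Il4i1.

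Trib3 (chr2:152337422-152344032, minus strand), a pseudokinase that restrains ATF4, and Chac1 (chr2:119351229-119354381, plus strand), which degrades glutathione, were both low. Trib3 was at 2.89 and 3.26 CPM in GFP, 4.73 and 2.30 in YAP6SA and 5.17 and 4.60 in YAP5SA. Chac1 was at 2.10 and 3.85 CPM in GFP, 3.10 and 1.70 in YAP6SA and 4.70 and 7.29 in YAP5SA. Each was above both GFP libraries in both YAP5SA libraries, and the YAP6SA libraries of each overlapped GFP. In YAP5SA against GFP the log2 fold change was 0.66 (SE 0.43, FDR = 0.306) for Trib3 and 1.02 (SE 0.48, FDR = 0.154) for Chac1. Chac1 in YAP5SA against YAP6SA was 1.26 (95% CI 0.16 to 2.35, FDR = 0.114). It ran from 0.54 to 2.15 there with 1 library left out, and passed the threshold under 3 of 13 alternatives.

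Phgdh and Psat1, enzymes of serine synthesis, stood highest in the batch 2 YAP5SA library, far above its batch 1 partner. Phgdh (chr3:98313170-98339990, minus strand), which takes the first step from 3-phosphoglycerate, was at 1.79 and 1.70 CPM in GFP, 2.39 and 1.64 in YAP6SA and 3.05 and 8.01 in YAP5SA. Psat1 (chr19:15904678-15947337, minus strand), which adds the amino group, was at 2.89 and 2.48 CPM in GFP, 4.43 and 2.42 in YAP6SA and 4.17 and 14.3 in YAP5SA. Both genes were above GFP in both YAP5SA libraries, but for Psat1 the batch 1 YAP5SA library was under the batch 1 YAP6SA library. In YAP5SA against GFP the log2 fold change of Psat1 was 1.70 (95% CI 0.40 to 3.0, unadjusted p = 0.0153, FDR = 0.0625), and was 0.51 within batch 1 and 2.47 within batch 2. That of Phgdh was 1.60 (95% CI 0.40 to 2.80, unadjusted p = 0.0143, FDR = 0.0598), with 0.73 and 2.16. Phgdh passed the filter on low values through YAP5SA alone, so a positive value there was favored in advance. Neither passed. Psat1 passed under 6 of 13 alternatives and Phgdh under 4. Without YAP5SA replicate 1 the values were 2.71 (FDR = 0.000103) for Psat1 and 2.37 (FDR = 0.00194) for Phgdh, and without YAP5SA replicate 2 they were 0.38 (FDR = 0.71) and 0.66 (FDR = 0.547). Without YAP6SA replicate 2 Psat1 was at 1.54 (FDR = 0.0494). Against YAP6SA both were also not called, at 1.33 (FDR = 0.154) for Psat1 and 1.37 (FDR = 0.116) for Phgdh. With 1 library left out they ran there from 0.07 to 2.39 for Psat1 and from 0.47 to 2.17 for Phgdh.

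Asns (chr6:7675169-7693254, minus strand), which makes asparagine from aspartate and is a standard readout of amino acid stress, split in the same way and further. It was at 2.73 and 1.11 CPM in GFP, 2.24 and 2.12 in YAP6SA and 1.85 and 7.34 in YAP5SA. Of the YAP5SA libraries, the first lay within the GFP range and the second above all others. The log2 fold change against GFP was 1.14 (95% CI -0.43 to 2.70, FDR = 0.275), and the difference was -0.53 within batch 1 and 2.60 within batch 2. It was 2.33 (FDR = 0.00411) without YAP5SA replicate 1 and -0.29 (FDR = 0.827) without YAP5SA replicate 2. Against YAP6SA it was 1.01 (FDR = 0.345), 2.08 (FDR = 0.00703) without YAP5SA replicate 1 and -0.54 (FDR = 0.716) without YAP5SA replicate 2.

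The 3 enzymes had the largest differences between the YAP5SA libraries of any tested members. Replicate 2 was above replicate 1 by 3.78-fold for Asns, 3.36-fold for Psat1 and 2.57-fold for Phgdh. In YAP5SA, 3.32% of all genes tested exceeded a log2 difference of 1 in that direction, against 1.72% in GFP and 1.68% in YAP6SA. The other 6 members did not exceed it there, with Ddit3 at 0.726-fold, Trib3 at 0.892-fold, Atf5 at 0.941-fold, Atf4 at 1.05-fold, Gdf15 at 1.43-fold and Chac1 at 1.54-fold. The CM marker sum was 28455 CPM in replicate 2 and 39018 in replicate 1, and its part in these differences was not tested.

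**Figure D3:**
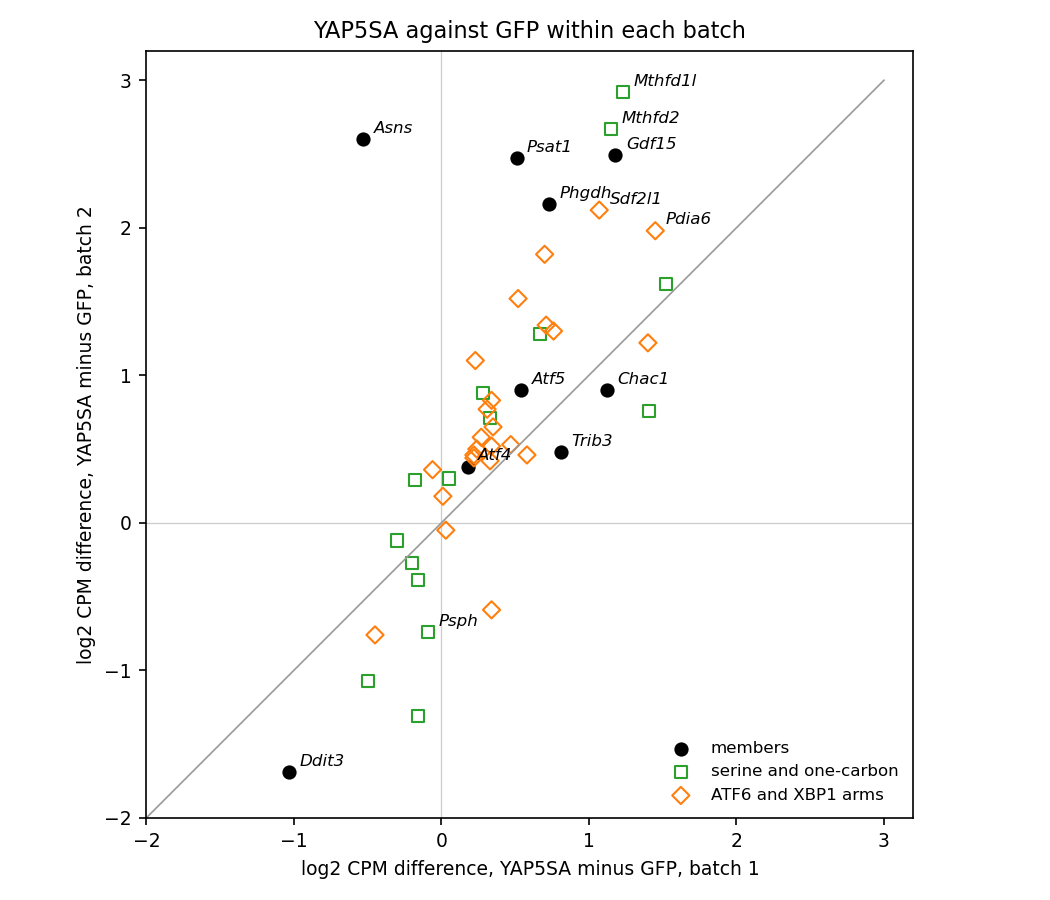
Log2 CPM difference of YAP5SA minus GFP in batch 1 (x axis) and batch 2 (y axis) for the members (black circles), other serine and one-carbon genes (green squares) and genes of the ATF6 and XBP1 arms (orange diamonds), with the line of equality. Asns lies at -0.53 and 2.60, Psat1 at 0.51 and 2.47 and Phgdh at 0.73 and 2.16, all above the line.

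Gdf15 (chr8:70629393-70632456, minus strand), a secreted stress factor that acts on the brainstem receptor Gfral, rose in YAP5SA and did not pass the test in YAP6SA. It was at 3.47 and 1.96 CPM in GFP, 8.19 and 7.21 in YAP6SA and 8.02 and 11.5 in YAP5SA. All 4 YAP libraries were above both GFP libraries, and the YAP groups overlapped. Gdf15 rose in YAP5SA against GFP by 1.86 on the log2 scale (95% CI 0.98 to 2.73, FDR = 0.0098), and by 1.18 within batch 1 and 2.49 within batch 2. This call held under 12 of 13 alternatives and was lost without GFP replicate 2 (1.40, FDR = 0.125). In YAP6SA against GFP the value was 1.50 (95% CI 0.64 to 2.36, unadjusted p = 0.00314, FDR = 0.462), with 1.21 and 1.82 in the batches. Gdf15 was called there under 5 of 13 alternatives, at 1.54 (FDR = 0.0167) in a fit of the 4 GFP and YAP6SA libraries, in which 1.49% of all genes were called higher, and at 1.53 without YAP5SA replicate 1 (FDR = 0.0219) or replicate 2 (FDR = 0.0256). Between the variants the log2 fold change was 0.36 (95% CI -0.45 to 1.17, FDR = 0.549), an interval that leaves room for a difference of up to 1.17 in favor of YAP5SA. Macrophages, whose marker sum was 50.3 and 69.8 CPM in GFP and 63.1 to 111 in the YAP libraries, can also express Gdf15, and their part was not tested.

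Fgf21 (chr7:45613886-45615490, minus strand), the other secreted factor of the response, was near the limit of detection. Its counts were 0 and 2 in GFP, 3 and 0 in YAP6SA and 5 and 0 in YAP5SA. Every library but 1 was at or under the floor of 3 counts, so no difference was detectable at this depth. Of the 7 genes for receptors of FGF21 and GDF15 (Klb, Fgfr1, Fgfr2, Fgfr3, Fgfr4, Gfral, Ret), 4 were tested, and Gfral had 0 counts in every library. Fgfr2 was the 1 called, in YAP5SA against YAP6SA (1.51, SE 0.38, FDR = 0.0262). It was at 4.42 and 3.92 CPM in GFP, 3.41 and 2.06 in YAP6SA and 7.95 and 7.40 in YAP5SA, and its log2 fold change against GFP was 0.89 (FDR = 0.11) for YAP5SA and -0.62 (FDR = 0.877) for YAP6SA. The call was lost without YAP6SA replicate 1 (1.82, FDR = 0.0714), YAP6SA replicate 2 (1.24, FDR = 0.313) or YAP5SA replicate 2 (1.36, FDR = 0.0801).

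The other genes of these pathways were described in 6 further lists, beside the shares of all genes given above. In YAP6SA OE CMs edgeR and limma-voom called none of their genes against GFP, and DESeq2 called 1, Atf3. In edgeR an unadjusted p was under 0.05 for 1 of 18 eIF2 control genes, 3 of 23 other ATF4 targets, 0 of 15 serine and one-carbon genes, 1 of 20 tRNA synthetases, 3 of 24 genes of the ATF6 and XBP1 arms and 1 of 12 mitochondrial chaperones and proteases, against 5.93% of all genes. The genes with the smallest p in each were the early stress factor Atf3 (1.76, SE 0.40, FDR = 0.328), the eIF2 phosphatase subunit Ppp1r15a (0.73, FDR = 0.592), Atf6b (0.63, FDR = 0.765), Hspe1 (0.57, FDR = 0.804), Farsb (-0.38, FDR = 0.815) and Mtr (0.23, FDR = 0.902). Atf3 was at 12.8 and 3.72 CPM in GFP, 25.1 and 27.4 in YAP6SA and 27.4 and 28.9 in YAP5SA. As with Gdf15, all 4 YAP libraries were above both GFP libraries. Atf3 was called in YAP6SA under 7 of 13 alternatives, among them the fit without GFP replicate 1 (2.86) and those without YAP5SA replicate 1 (1.80) or replicate 2 (1.80). With 1 library left out its value ran from 0.98 to 2.86. The difference was 0.96 within batch 1 and 2.84 within batch 2, where GFP was at 3.72 CPM, so its size depended on the GFP library. Ppp1r15a was called without YAP5SA replicate 1 (0.74, FDR = 0.0293) or replicate 2 (0.74, FDR = 0.0335) and in the 4-library fit (0.75, FDR = 0.0196), where Atf6b was also called (0.65, FDR = 0.0499).

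Upstream of ATF4, 18 genes that control eIF2 were tested (the kinases, eIF2 and eIF2B subunits, phosphatase subunits and their regulators), and in YAP5SA against GFP 2 rose and 2 fell, with a median of -0.01. Ppp1r15a (GADD34), the feedback subunit that restores translation, rose by 1.02 (SE 0.22, FDR = 0.0104), from 16.5 and 20.4 CPM in GFP to 25.6 and 53.4. The eIF2 subunit Eif2s2 rose by 0.71 (FDR = 0.0273). The eIF2B subunit Eif2b4 fell by 0.72 (FDR = 0.00779) and Dele1, which carries the mitochondrial signal to Eif2ak1, fell by 0.67 (FDR = 0.0161). None of the 4 kinase genes was called. Eif2s2 was not called without GFP replicate 1 (0.76, FDR = 0.094), and without YAP5SA replicate 2 neither Eif2s2 (0.47, FDR = 0.158) nor Dele1 (-0.46, FDR = 0.0629) was. Without GFP replicate 2 the calls of this list were lost, and fewer of all genes were called. With no batch term the count higher was 1, where 9.99% of all genes were called higher, since Ppp1r15a was at 1.10 (FDR = 0.0561). Against YAP6SA only Eif2b4 was called (-0.75, FDR = 0.00887), and this call was lost without YAP6SA replicate 1 (FDR = 0.0629) or replicate 2 (FDR = 0.102).

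Of 25 other ATF4 targets, 23 were tested, and in YAP5SA against GFP 4 rose and 3 fell, with a median of 0.09. Slc7a5, the light chain of the large neutral amino acid transporter, rose most, by 3.52 (95% CI 2.62 to 4.43, FDR = 0.000677). It was at 2.94 and 1.70 CPM in GFP, 4.48 and 2.79 in YAP6SA and 20.1 and 32.8 in YAP5SA. Both YAP5SA libraries stood far above the other 4, and the call held under all 13 alternatives, also against YAP6SA (2.88, FDR = 0.00186). Its partner chain Slc3a2, named after its values were seen, was at 55.6 and 68.7 CPM in GFP and 124 and 117 in YAP5SA and rose by 0.95 (FDR = 0.00951). Atf3 rose by 1.86 (FDR = 0.0112) and Jdp2, a repressor of the same bZIP family, by 1.31 (FDR = 0.00742). Gpt2, a mitochondrial alanine aminotransferase, fell by 1.01 (FDR = 0.0132), the lipoprotein receptor Vldlr fell by 0.89 (FDR = 0.0192) and the ER oxidase Ero1a fell by 0.55 (FDR = 0.0301). Against YAP6SA, Slc7a5 and Jdp2 (1.15, FDR = 0.0161) rose and Gpt2 fell by 0.86 (FDR = 0.0328), a call lost with no batch term (-0.83, FDR = 0.0734), without YAP6SA replicate 1 (FDR = 0.0824) or replicate 2 (FDR = 0.301) and without YAP5SA replicate 2 (FDR = 0.183). Fewer of the list were called against GFP without GFP replicate 2. In that fit Atf3 (1.08), Jdp2 (0.92), Gpt2 (-0.80), Vldlr (-0.74) and Ero1a (-0.60) were not called. Fewer were called lower without YAP5SA replicate 2, where Gpt2 (-0.66) was not called. Calls over all genes fell in both fits too. Ero1a was called under 6 of 13 alternatives. Jdp2 against YAP6SA was not called without YAP6SA replicate 1 (1.00, FDR = 0.11) or replicate 2 (1.33, FDR = 0.0883) or YAP5SA replicate 2 (0.92, FDR = 0.0552).

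Of 18 further serine and one-carbon genes, 15 were tested, and in YAP5SA 5 rose and none fell, both against GFP (median 0.18) and against YAP6SA (median 0.07). At an unadjusted p under 0.05, 2 were lower against GFP, as were 17.0% of all genes, and 1 was lower against YAP6SA, as were 14.5%, and DESeq2 and limma-voom called none lower in either comparison. The mitochondrial folate enzymes Mthfd1l and Mthfd2 rose by 2.15 (FDR = 0.0256) and 1.98 (FDR = 0.0125) against GFP. Mthfd1l had 30 and 8 counts in GFP, 35 and 14 in YAP6SA and 58 and 84 in YAP5SA. It passed the filter on low values through YAP5SA alone, which favors a positive value there. Mthfd2 was at 3.52 and 2.29 CPM in GFP, 3.76 and 2.79 in YAP6SA and 7.95 and 15.1 in YAP5SA. Also called higher than GFP were the thymidylate synthase gene Tyms (0.98, FDR = 0.0123) and Shmt1 (1.09, FDR = 0.0112), of which Shmt1 was named after its values were seen. Against YAP6SA, Mthfd2 rose by 1.81 (FDR = 0.0226) and Tyms by 1.24 (FDR = 0.00588). Psph, the last enzyme of serine synthesis and likewise named after its values were seen, was at 23.3 and 31.1 CPM in GFP, 27.5 and 28.1 in YAP6SA and 22.0 and 18.6 in YAP5SA. Unlike Phgdh and Psat1, Psph was lower in both YAP5SA libraries than in both GFP libraries, with a log2 fold change of -0.42 (FDR = 0.196). Of its exonic bases 10.4% are shared with Cct6a. With no batch term the count of genes higher than GFP was 3, where 9.99% of all genes were called higher. It also fell without GFP replicate 2 or YAP5SA replicate 2, as did that of all genes. Mthfd1l and Mthfd2 were at 1.60 (FDR = 0.249) and 1.52 (FDR = 0.145) without GFP replicate 2, and at 1.39 (FDR = 0.176) and 1.23 (FDR = 0.0958) without YAP5SA replicate 2. Against YAP6SA the count fell without YAP6SA replicate 1 or replicate 2, as did that of all genes. Without YAP6SA replicate 2, Mthfd2 (1.47) and Tyms (1.21) were not called there, nor was Mthfd2 without YAP5SA replicate 2 (1.05).

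The cytosolic aminoacyl-tRNA synthetases, a broad class of ATF4 targets, did not pass the test in any comparison. All 20 were tested in YAP5SA against GFP with a median of 0.15, and 1 had an unadjusted p under 0.05 in edgeR, Gars (0.39, FDR = 0.134), against 36.4% of all genes. Against YAP6SA the median was 0.17, and 3 had an unadjusted p under 0.05, with Cars at 0.47 (FDR = 0.122), against 30.8% of all genes. DESeq2 called none in either comparison. Without YAP5SA replicate 1 the counts called higher were 4 against GFP, where 19.4% of all genes were called higher in that fit, and 6 against YAP6SA, where 16.6% were.

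**Figure D4:**
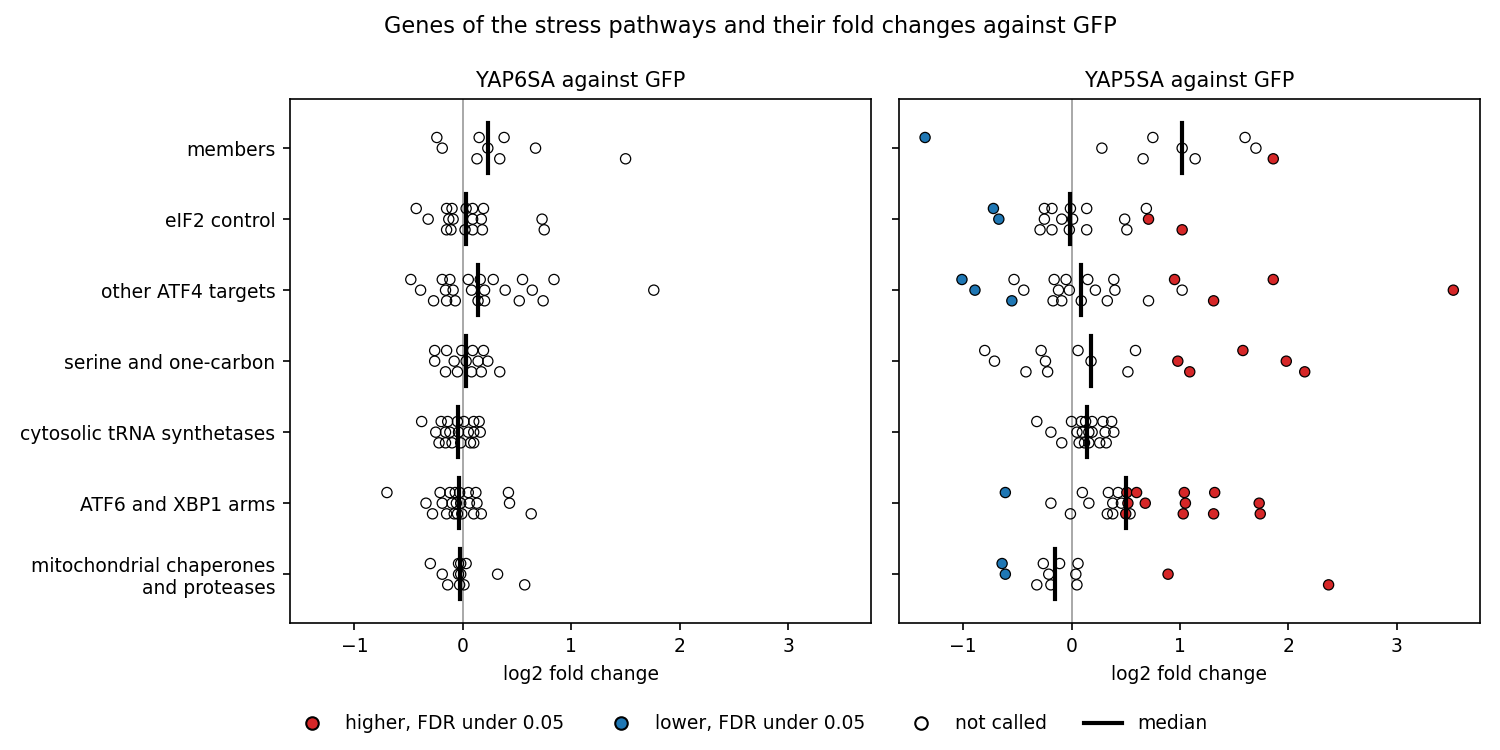
Log2 fold changes against GFP of every tested gene of 7 lists, YAP6SA on the left and YAP5SA on the right, with red points for genes called higher, blue for lower, open for not called, and a bar at the list's median. No gene is called in YAP6SA; in YAP5SA the ATF6 and XBP1 arms have 12 genes higher and 1 lower, and the tRNA synthetases have none.

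Beside the eIF2 arm, the ER stress response has the ATF6 and XBP1 arms. Of 25 genes of these, 24 were tested, and in YAP5SA 12 rose and 1 fell against GFP, with a median of 0.50. The disulfide isomerase Pdia6 rose by 1.73 (FDR = 0.000432) from 44.7 and 54.7 CPM to 122 and 217, and the call held under all 13 alternatives. Sdf2l1, a chaperone cofactor, rose by 1.74 (FDR = 0.0461), and Manf, a secreted ER stress protein, by 1.32 (FDR = 0.0119). Sdf2l1 had 27 and 23 counts in GFP, 35 and 17 in YAP6SA and 47 and 123 in YAP5SA. It passed the filter on low values through YAP5SA alone, which favors a positive value there. Herpud1, an ER degradation factor that ATF4 also drives, fell by 0.61 (FDR = 0.0221), a call lost without GFP replicate 2 (-0.44, FDR = 0.334) or YAP5SA replicate 2 (-0.52, FDR = 0.0646). Against YAP6SA 8 rose, among them Pdia6 (1.61, FDR = 0.000761), Manf (1.15, FDR = 0.0268) and the factor Xbp1 (1.09, FDR = 0.00691), and none fell, with a median of 0.52. At an unadjusted p under 0.05, 1 was lower, as were 14.5% of all genes, and DESeq2 and limma-voom called none lower. The count higher than GFP was 6 with no batch term, where 9.99% of all genes were called higher. It also fell without GFP replicate 1, GFP replicate 2 or YAP5SA replicate 2, as did that of all genes. Manf was at 1.05 (FDR = 0.134) without GFP replicate 2 and 0.69 (FDR = 0.0628) without YAP5SA replicate 2, and Sdf2l1 at 1.63 (FDR = 0.273) and 0.93 (FDR = 0.408). Against YAP6SA the count higher was 4 with no batch term, where 6.39% of all genes were called higher. It rose without YAP5SA replicate 1 and fell without YAP6SA replicate 2, as did that of all genes. Without YAP6SA replicate 2, Manf (0.80) and Xbp1 (0.84) were not called, nor was Manf without YAP5SA replicate 2 (0.53).

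Of 12 mitochondrial chaperones and proteases, 2 rose and 2 fell in YAP5SA against GFP, with a median of -0.15. Htra2 rose by 2.37 (FDR = 0.000187), but 43.7% of its exonic bases are shared with Loxl3 and Aup1. Reads there were dropped as ambiguous, which leaves its level uncertain. Hspe1 rose by 0.89 (FDR = 0.0227), the protease subunits Clpx and Afg3l2 fell by 0.64 (FDR = 0.0124) and 0.61 (FDR = 0.0154), and against YAP6SA only Htra2 was called (2.04, FDR = 0.000384). Without GFP replicate 1 or replicate 2, Clpx and Afg3l2 were not called, and Hspe1 was not called without GFP replicate 2 (0.66, FDR = 0.272) or YAP5SA replicate 2 (0.54, FDR = 0.129).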

How the data were processed

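The authors mapped reads from poly-A nuclear RNA with STAR to mm10 (Ensembl GRCm38.94) and deposited raw counts per gene, 1 column per library, with no scaling or filter. STAR's version was not given in the sources used here. Of all reads, 9.43% to 9.84% lay outside genes, 5.79% to 6.31% were ambiguous, 2.9% to 4.19% were multimapping and 3.03% to 3.63% unmapped, and none of these entered library sizes. Of 54532 IDs, 54409 were named from GENCODE M21, which gave the coordinates (mm10).

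The model was edgeR 4.0.16 under R 4.3.3, with TMM scaling, the quasi-likelihood F test and batch as covariate. The study's edgeR model also had a covariate for batch, and the paper does not state whether all libraries entered the same fit. Here 1 model of all 6 libraries was fitted, on the 13323 genes with a median log2 CPM over 1 in at least 1 group. p-values were adjusted by Benjamini-Hochberg over these genes (FDR), with a threshold of 0.05. Confidence intervals (95%) used the moderated degrees of freedom, and batch differences used log2 CPM with a prior count of 2. The main fit was tested on data simulated with no batch effect, for YAP5SA against GFP only, and the other fits were not tested in this way. The replicate number is the batch number in the labels, which pairs the libraries; correlations of deviations from the group means were 0.368, 0.0985 and 0.175. The chi-square of replicate counts was 30.9 to 49.4 per degree of freedom, so none was a copy. Alternatives were RLE scaling, no filter, the likelihood ratio test, DESeq2 1.42.0, limma-voom (limma 3.58.1), leaving out the batch term, fitting each comparison on its own 4 libraries, and leaving out each library.

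All 10 members were named. Of each further list, up to 3 genes per direction and comparison with the largest change among those called with the same sign in both batches were named, or else the gene with the smallest p; a result for a withheld item is not reported here. Members and lists were chosen with earlier results of these data known. RefSeq promoters (GRCm38.p6) matched all 10 members.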

Additional observations from a re-analysis of the deposited data

How the results depend on the processing

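With 2 libraries per group the calls depended on the test and on single libraries. Ddit3 stayed lower in YAP5SA in every fit and in every fit without 1 library, and no call of a lower member changed. The number of members higher in YAP5SA than in GFP was 1, and it was 3 by DESeq2, by the likelihood ratio test and with no filter, 2 in the 4-library fit, and 0 to 6 with 1 library left out. In YAP6SA against GFP the number was 0, and 1 in the 4-library fit, with no filter and by the likelihood ratio test, and 0 to 1 with 1 library left out. In YAP5SA against YAP6SA it was 0, and 3 with no filter, 2 with the likelihood ratio test and 0 to 4 with 1 library left out. Without the batch term, which is the replicate block that pairs the libraries, the number of members higher was as with it in each comparison, and Atf5 in YAP5SA against YAP6SA turned to -0.01. Of the other genes named, Ppp1r15a (1.10, FDR = 0.0561), Ero1a (-0.55, FDR = 0.068), Mthfd1l (1.99, FDR = 0.0531) and Sdf2l1 (1.78, FDR = 0.0523) were then not called in YAP5SA against GFP, nor were Gpt2 (-0.83, FDR = 0.0734) and Manf (1.26, FDR = 0.0622) against YAP6SA. The share of all genes called also changed between the fits. For genes higher in YAP5SA than in GFP it was 12.8% in the main fit and 12.3% by DESeq2. It was 15.5% by the likelihood ratio test, 7.27% with no filter and 11.6% in the 4-library fit. This share also changed with 1 library left out, so the member counts of those fits do not describe the members alone. A fit with 1 library left out assumes that the lone library of its group varies like the others.

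The members whose direction turned when 1 library was left out were not called in the full fit. In YAP6SA against GFP they were Trib3 (-0.41 to 0.62), Asns (-0.75 to 1.52), Chac1 (-1.12 to 0.49), Psat1 (-0.64 to 1.07) and Phgdh (-0.49 to 0.78), and in YAP5SA against GFP Asns (-0.29 to 2.34). In YAP5SA against YAP6SA they were Atf4 (-0.17 to 0.07), Atf5 (-0.30 to 0.49), Asns (-0.54 to 2.08) and Gdf15 (-0.15 to 0.82). The cause was not tested. The number of all genes higher and lower in YAP5SA than in GFP was 560 and 178 without GFP replicate 2, against 1708 and 1223 in the full fit. Depth limits Fgf21, and the members at a few CPM rest on 17 to 308 counts.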
